A study of Mus musculus with 12 samples.

Results

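The 8 genes described here were chosen by symbol: Hmgcs1, Mvd, Idi1, Fdps, Sqle, Lss, Dhcr7 and Insig1. They are 8 of the 14082 gene symbols used, and all 8 were among the 12962 that passed the filter on low values. The first 7 encode enzymes of cholesterol synthesis and Insig1 encodes a regulator of that pathway. None of the 8 is an uptake gene, so genes of sterol uptake and transport are given beside them. RNA was sequenced from Lgr5-GFP+ stem cells that had been sorted out of mouse intestinal epithelium. All mice were C57BL/6, all carried Lgr5-CreERT2-ires-eGFP, and all received tamoxifen as 1 injection followed by 5 days of diet, with cells taken on day 15. The groups were ApcFlox/Flox (Apc_KO), ApcFlox/+ (Apc_HET) and Apc+/+ (Apc_WT), with 4 libraries from 4 mice in each. The controls were thus also exposed to Cre and tamoxifen. Cre and GFP were both driven by Lgr5, so the sort gate and the deletion depended on the same gene, and age, sex and gut segment were not given.

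Cells make cholesterol from acetyl-CoA through mevalonate and isoprenoid intermediates, then squalene and lanosterol. The transcription factor SREBP2, the product of Srebf2, turns these genes on when membrane sterol is low. When sterol is plentiful, INSIG proteins hold the SREBP escort protein SCAP in the endoplasmic reticulum and the factor is not activated. In the intestine sterol is also absorbed from the lumen, mainly by mature enterocytes of the villus, whereas crypt stem cells divide and build new membrane.

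Because the 8 genes share a known regulator, promoter sequences are shown for 4 of the 6 with a RefSeq entry (assembly GRCm38.p6), those with the highest Apc_KO over Apc_WT fold change. Each is the 250 bases before the RefSeq start of the gene, read 5′ to 3′ on the strand of the gene. GENCODE starts differ for 3 of the 4. Those of Idi1 (8885501) and Lss (76531588) lie inside the windows, and that of Hmgcs1 (119690379) lies past the window's end. The marked stretches of Idi1 thus lie inside the GENCODE gene. Capitals mark 2 motifs: the CCAAT box (CCAAT, read as ATTGG on the other strand), bound by the SREBP partner NF-Y, and the sterol regulatory element (TCACNCCAC), bound by SREBP. The Mvd sequence is chr8:122443423-122443672 on the minus strand, and the other 3 are on the plus strand: Lss at chr10:76531355-76531604, Idi1 at chr13:8885356-8885605 and Hmgcs1 at chr13:119690101-119690350.
Mvd: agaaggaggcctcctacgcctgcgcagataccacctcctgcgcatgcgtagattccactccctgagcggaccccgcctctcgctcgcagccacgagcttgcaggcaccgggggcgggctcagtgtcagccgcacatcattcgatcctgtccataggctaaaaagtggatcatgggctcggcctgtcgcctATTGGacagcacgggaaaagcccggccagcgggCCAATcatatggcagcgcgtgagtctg
Lss: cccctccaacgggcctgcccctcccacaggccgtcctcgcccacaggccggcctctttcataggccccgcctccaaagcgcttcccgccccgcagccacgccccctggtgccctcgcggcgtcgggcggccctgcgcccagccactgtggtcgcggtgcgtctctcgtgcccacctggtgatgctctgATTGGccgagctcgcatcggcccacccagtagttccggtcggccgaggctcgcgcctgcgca
Idi1: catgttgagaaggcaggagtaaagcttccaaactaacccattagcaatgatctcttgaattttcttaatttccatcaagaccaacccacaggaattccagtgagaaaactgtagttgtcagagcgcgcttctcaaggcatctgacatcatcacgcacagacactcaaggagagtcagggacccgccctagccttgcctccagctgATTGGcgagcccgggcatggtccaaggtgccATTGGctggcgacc
Hmgcs1: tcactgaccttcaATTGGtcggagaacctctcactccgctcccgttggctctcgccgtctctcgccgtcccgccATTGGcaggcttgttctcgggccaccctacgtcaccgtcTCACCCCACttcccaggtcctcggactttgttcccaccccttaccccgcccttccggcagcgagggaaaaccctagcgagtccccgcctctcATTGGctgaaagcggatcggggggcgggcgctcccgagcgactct

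The Hmgcs1 promoter held 1 sterol regulatory element, TCACCCCAC, at positions -137 to -129 counted back from the start, and 3 CCAAT boxes. Of 32851 promoter windows of the same length, 1.05% held that element on either strand. The Mvd and Idi1 windows held 2 CCAAT boxes each and the Lss window 1, in a background of 33.8% of windows with at least 1. Insig1 had 1 CCAAT box and 1 E-box (CACGTG, in 6.02% of windows), and Dhcr7 had 3 annotated starts whose windows differed in these motifs. A match describes the letters of the window only, and Fdps and Sqle have no sequence shown.

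Depth could not be recovered from the FPKM tables, so no counting error is given. FPKM relates fragments to transcript length and library size. Median-of-ratios size factors between 1.007 and 1.06 in Apc_KO, 1.001 and 1.015 in Apc_HET and 0.9472 and 0.958 in Apc_WT showed that a typical gene stood higher in Apc_KO libraries as deposited. The median log2 difference of all genes, Apc_KO minus Apc_WT, was 0.12 as deposited and 0.01 after division by these factors. Apc had 17.3, 12.9, 15.3 and 9.94 FPKM in Apc_KO, 9.81, 11.0, 10.7 and 12.5 FPKM in Apc_HET, and 9.97, 6.91, 10.5 and 8.20 FPKM in Apc_WT. A value over the whole gene does not check the deletion of a floxed part.

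**Figure D1:**
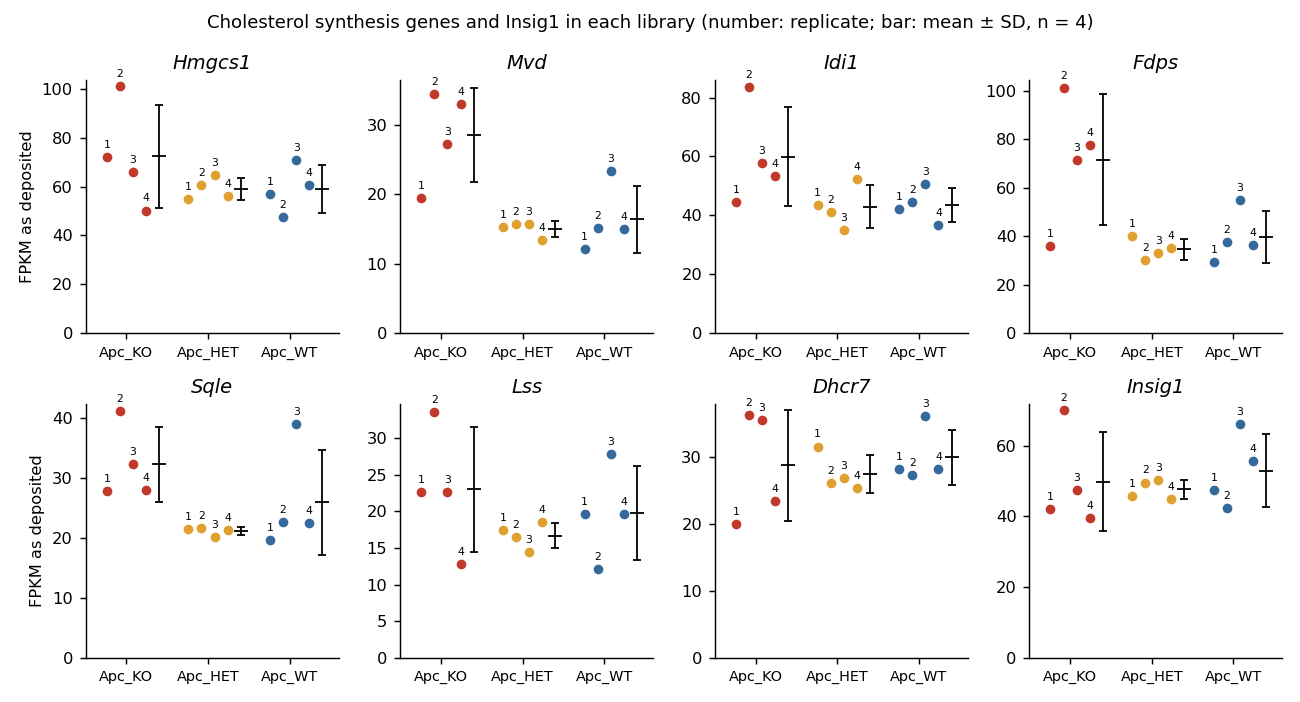
Deposited FPKM (y axis) of the 8 genes in each library, by genotype from Apc_KO on the left to Apc_WT on the right, with the replicate number above each point and mean ± SD beside the 4 points. Apc_KO replicate 2 was the highest Apc_KO library and Apc_WT replicate 3 the highest Apc_WT library in each of the 8 panels.

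Loss of both Apc copies was set against wild type to ask whether the pathway changed with it. Mvd and Fdps, which act on either side of Idi1 in the isoprenoid part of the pathway, rose in Apc_KO cells, and the other 6 genes did not pass the test. Mvd was 1.71-fold and Fdps 1.72-fold higher on the scale of FPKM plus 1. Fold changes below are differences of log2(FPKM + 1), tested with limma in 1 fit of all 12 libraries, and a gene was called at a Benjamini-Hochberg adjusted p under 0.05. The 2 called genes of 8 stand against 27.9% of all genes called higher and 17.7% called lower in this comparison, so their number was near the background. With size factors 1 of the 8 was called, against 22.1% of all genes higher and 21.8% lower.

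Hmgcs1 encodes the cytosolic HMG-CoA synthase, which acts before mevalonate is formed. It had 72.2, 101, 65.9 and 50.2 FPKM in Apc_KO, 54.8, 60.5, 64.9 and 56.2 FPKM in Apc_HET, and 57.1, 47.5, 70.9 and 60.5 FPKM in Apc_WT. Apc_KO replicate 2 stood far above every other library, Apc_KO replicate 4 was below every Apc_HET library, and all 3 ranges overlapped. The Apc_KO minus Apc_WT difference was 0.26 ± 0.18 (SE, limma adjusted p = 0.282). It was 0.13 with size factors, 0.09 without Apc_KO replicate 2, 0.42 without Apc_KO replicate 4 and 0.16 without Apc_WT replicate 2, and was not called in any of these (adjusted p 0.0515 to 0.689 over the alternatives).

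Mvd encodes mevalonate diphosphate decarboxylase, which makes the first isoprenoid unit. Its level was 19.4, 34.4, 27.2 and 33.0 FPKM in Apc_KO, 15.3, 15.7, 15.7 and 13.4 FPKM in Apc_HET, and 12.1, 15.1, 23.3 and 15.0 FPKM in Apc_WT. All 4 Apc_KO libraries were above all 4 Apc_HET libraries, and the overlap with Apc_WT came from Apc_KO replicate 1 lying below Apc_WT replicate 3. The mean was 28.5 ± 6.80 FPKM in Apc_KO and 16.4 ± 4.82 FPKM in Apc_WT (SD, n = 4 each), a log2 difference of 0.77 ± 0.20 (SE, limma adjusted p = 0.0074). With size factors the difference was 0.65 (adjusted p = 0.0155), and the gene was called under every alternative tried, with adjusted p between 0.00146 and 0.0257.

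Idi1 encodes the isomerase that interconverts the pair of isoprenoid units. It had 44.5, 83.6, 57.8 and 53.5 FPKM in Apc_KO, 43.4, 41.2, 35.0 and 52.4 FPKM in Apc_HET, and 42.1, 44.5, 50.8 and 36.8 FPKM in Apc_WT. Of the Apc_KO libraries, replicates 2, 3 and 4 were above all Apc_WT libraries and replicate 1 lay among them. The difference of 0.42 ± 0.18 from Apc_WT was not called (SE, limma adjusted p = 0.0804), and was 0.30 with size factors and 0.25 without Apc_KO replicate 2. Without Apc_KO replicate 1 it was 0.55 and passed (adjusted p = 0.0256, with 0.0256 to 0.22 over the alternatives).

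Fdps encodes farnesyl diphosphate synthase, whose product feeds both sterols and protein prenylation. Its level was 35.9, 101, 71.3 and 77.6 FPKM in Apc_KO, 40.3, 30.1, 33.3 and 35.3 FPKM in Apc_HET, and 29.4, 37.6, 54.8 and 36.4 FPKM in Apc_WT. Apc_KO replicate 1 lay among the libraries of the other genotypes, and the other 3 Apc_KO libraries lay above all of them. The mean was 71.6 ± 27.1 FPKM in Apc_KO and 39.6 ± 10.8 FPKM in Apc_WT (SD, n = 4 each), a difference of 0.78 ± 0.27 (SE, limma adjusted p = 0.0336). The call was lost with size factors (0.66, adjusted p = 0.0599), in a fit of only the 2 genotypes (0.78, adjusted p = 0.074), without Apc_KO replicate 2, 3 or 4 (0.59, 0.75 and 0.71) and without Apc_WT replicate 1, 2 or 4 (0.66, 0.77 and 0.76), with adjusted p between 0.00104 and 0.0967 over the alternatives. The annotation places Gm43738 over Fdps on the same strand with 1124 exonic bases shared, so fragments of the pair cannot be told apart.

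Sqle encodes squalene epoxidase, the first oxygen-requiring step towards sterols. It had 27.8, 41.2, 32.4 and 28.0 FPKM in Apc_KO, 21.5, 21.7, 20.2 and 21.3 FPKM in Apc_HET, and 19.7, 22.7, 39.0 and 22.5 FPKM in Apc_WT. The 4 Apc_HET libraries were close together, and Apc_WT replicate 3 stood far above the other Apc_WT libraries and within the Apc_KO range. The difference from Apc_WT was 0.34 ± 0.19 and was not called (SE, limma adjusted p = 0.166). It was 0.22 with size factors, 0.22 without Apc_KO replicate 2 and 0.23 without Apc_WT replicate 1. Without Apc_WT replicate 3 it was 0.54 and was called (adjusted p = 0.00741, with 0.00741 to 0.384 over the alternatives).

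Lss encodes lanosterol synthase, which closes the sterol rings. Its level was 22.7, 33.6, 22.7 and 12.8 FPKM in Apc_KO, 17.4, 16.5, 14.5 and 18.5 FPKM in Apc_HET, and 19.6, 12.1, 27.8 and 19.6 FPKM in Apc_WT. The Apc_KO libraries spanned nearly the whole Apc_WT range and more, with a difference of 0.19 ± 0.27 (SE, limma adjusted p = 0.601). It was 0.07 with size factors, -0.01 without Apc_KO replicate 2, -0.02 without Apc_WT replicate 2, 0.43 without Apc_KO replicate 4 and 0.36 without Apc_WT replicate 3, and was called in none of these (adjusted p 0.151 to 0.972 over the alternatives).

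Dhcr7 encodes the reductase of the last step to cholesterol. It had 20.0, 36.2, 35.4 and 23.3 FPKM in Apc_KO, 31.5, 26.0, 26.8 and 25.3 FPKM in Apc_HET, and 28.1, 27.3, 36.0 and 28.2 FPKM in Apc_WT. The Apc_KO libraries fell into a higher and a lower pair on either side of the Apc_HET and most Apc_WT libraries. The difference from Apc_WT was -0.09 ± 0.18 as deposited and -0.21 with size factors, and neither was called (SE, limma adjusted p = 0.712 as deposited, 0.354 to 0.997 over the alternatives).

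Insig1 encodes the sterol-dependent anchor of SCAP and is itself an SREBP target. It had 42.0, 70.1, 47.5 and 39.5 FPKM in Apc_KO, 45.9, 49.6, 50.3 and 45.0 FPKM in Apc_HET, and 47.5, 42.5, 66.3 and 55.6 FPKM in Apc_WT. Apart from Apc_KO replicate 2, the Apc_KO libraries lay at or below the middle of the Apc_WT range. The difference from Apc_WT was -0.10 ± 0.18 (SE, limma adjusted p = 0.663) and -0.23 with size factors.

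Hmgcs1, Idi1 and Lss also overlap annotated genes on the opposite strand, with 557, 323 and 381 exonic bases shared, and the sources used here do not say whether counting used strand. Mvd lies inside Gm20388 on the opposite strand with 0 exonic bases shared, and Sqle, Dhcr7 and Insig1 overlap no annotated gene.

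**Figure D2:**
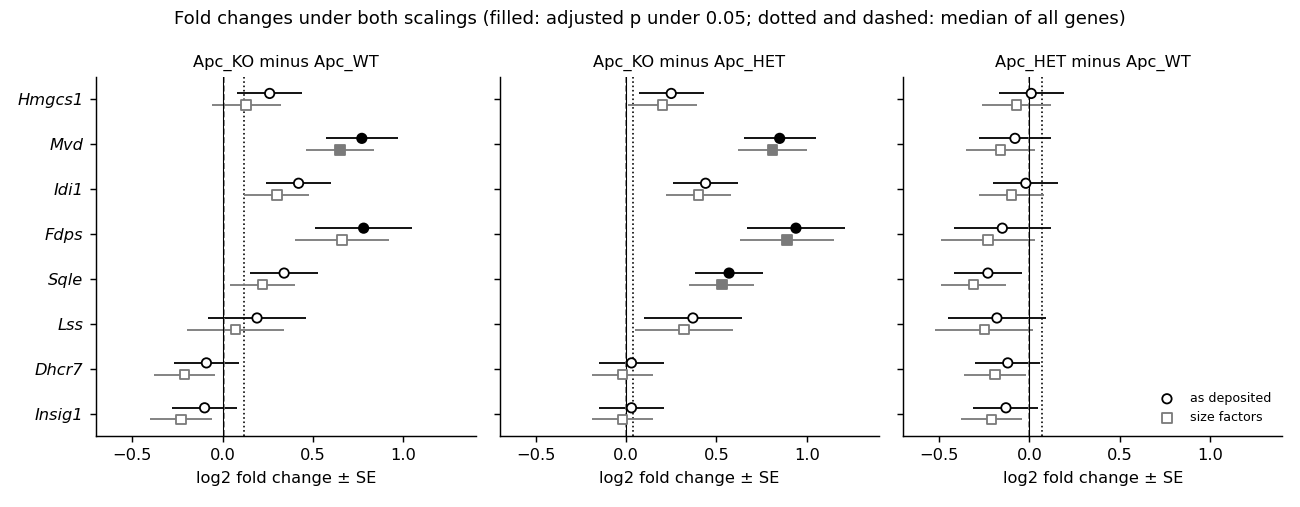
Log2 fold change of each gene (x axis, ± SE from limma) in the 3 comparisons, as deposited (circles) and with size factors (squares), with filled symbols for adjusted p under 0.05 and dotted or dashed lines at the median of all genes. Mvd at 0.77 and Fdps at 0.78 were called in Apc_KO minus Apc_WT as deposited, and no gene was called in Apc_HET minus Apc_WT.

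Apc_KO cells were also set against Apc_HET cells, which had lost 1 copy. Mvd, Fdps and Sqle rose in Apc_KO, and the other 5 genes were not called. The 3 of 8 called genes compare with 22.8% of all genes called higher and 18.9% called lower. The same 3 were called with size factors, where 20.6% of all genes were called higher and 20.5% lower. The Apc_HET libraries are the same in this comparison as in the comparison with Apc_WT, and the Apc_KO libraries are shared with the comparison above, so their values are not independent. Mvd differed by 0.85 ± 0.20 (SE, limma adjusted p = 0.00459) and its Apc_KO and Apc_HET libraries did not overlap. Fdps differed by 0.94 ± 0.27 (SE, limma adjusted p = 0.0155) and overlapped through Apc_KO replicate 1.

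Sqle had a mean of 32.3 ± 6.27 FPKM in Apc_KO and 21.2 ± 0.687 FPKM in Apc_HET (SD, n = 4 each), without overlap. The difference was 0.57 ± 0.19 (SE, limma adjusted p = 0.0283). Mvd and Sqle were the 2 of 8 genes without overlap between these genotypes, against 21.4% of all genes higher without overlap and 18.0% lower. The Sqle call was lost without Apc_KO replicate 2 (0.45) or 3 (0.56) and without each Apc_HET library in turn (0.58, 0.58, 0.55 and 0.58), with adjusted p between 0.00361 and 0.0796 over the alternatives.

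For the genes not called against Apc_HET, the differences were 0.44 for Idi1, 0.37 for Lss and 0.25 for Hmgcs1. Dhcr7 and Insig1 each differed by 0.03 ± 0.18 (SE) as deposited, and by -0.02 with size factors. Without Apc_KO replicate 2 those of Idi1, Lss and Hmgcs1 were 0.27, 0.17 and 0.07, and without Apc_KO replicate 4 those of Lss and Hmgcs1 were 0.61 and 0.40, none of them called. Idi1 passed without Apc_KO replicate 1 (0.57) or Apc_HET replicate 4 (0.54), with adjusted p between 0.0231 and 0.187 over the alternatives. The median difference of the 8 genes was 0.41, against 0.04 over all genes, and it was 0.30 against 0.12 in Apc_KO minus Apc_WT.

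Loss of 1 Apc copy was set against wild type in the third comparison. None of the 8 genes was called in Apc_HET minus Apc_WT, and limma called 0 of 12962 genes, a background of 0.00%. At an unadjusted limma p under 0.05 there were 561 genes, 4.33% of those tested, and 0 of the 8, whose lowest unadjusted p was 0.237. The differences ran from -0.23 ± 0.19 (SE) for Sqle to 0.01 ± 0.18 (SE) for Hmgcs1, with a median of -0.12 against 0.07 over all genes. The size of Sqle's difference came with Apc_WT replicate 3, without which it was -0.03. A p that misses the threshold does not show that the genotypes are alike.

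The 8 genes stood in the same order of mean level in Apc_HET and Apc_WT and in another order in Apc_KO. Mean FPKM in Apc_KO ran from Hmgcs1 (72.3), Fdps (71.6), Idi1 (59.9) and Insig1 (49.8) to Sqle (32.3), Dhcr7 (28.7), Mvd (28.5) and Lss (23.0), and each gene's range overlapped that of the next. In Apc_HET the order was Hmgcs1 (59.1), Insig1 (47.7), Idi1 (43.0), Fdps (34.7), Dhcr7 (27.4), Sqle (21.2), Lss (16.7) and Mvd (15.0). There Hmgcs1 stood clear of Insig1, Dhcr7 of Sqle and Sqle of Lss, and the other neighbours overlapped. In Apc_WT the order was Hmgcs1 (59.0), Insig1 (53.0), Idi1 (43.5), Fdps (39.6), Dhcr7 (29.9), Sqle (26.0), Lss (19.8) and Mvd (16.4), and every pair of neighbours overlapped. Mvd was thus last in Apc_HET and Apc_WT and second to last in Apc_KO, where Fdps was second.

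In Apc_KO and Apc_WT the 8 genes had their highest value in the same library of the genotype, which was not so in Apc_HET. Apc_KO replicate 2 was the highest of the 4 Apc_KO libraries in 8 of the 8 genes, whereas it was the highest in 17.6% of all genes tested. Apc_WT replicate 3 was the highest of its genotype in 8 of the 8 genes and in 27.1% of all genes. Within Apc_HET the top place was spread over all 4 libraries, and replicate 3 was the highest for Hmgcs1 and the lowest for Idi1. Of the lowest places in Apc_KO, 5 went to replicate 1 and 3 to replicate 4. These are ranks over genes of shared libraries and are given as a description.

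On the scale of log2(FPKM + 1) centred on each gene's mean over 12 libraries, the mean of the 8 genes was -0.06, 0.72, 0.29 and 0.05 in Apc_KO, -0.13, -0.20, -0.22 and -0.17 in Apc_HET, and -0.23, -0.26, 0.34 and -0.12 in Apc_WT. Apc_WT replicate 3 thus lay above 3 of the 4 Apc_KO libraries. The coefficient of variation of the 8 genes was 19.4 to 37.9% in Apc_KO, 3.25 to 16.7% in Apc_HET and 13.3 to 33.8% in Apc_WT. The median over all genes was 25.8% in Apc_KO, 10.6% in Apc_HET and 13.5% in Apc_WT.

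**Figure D3:**
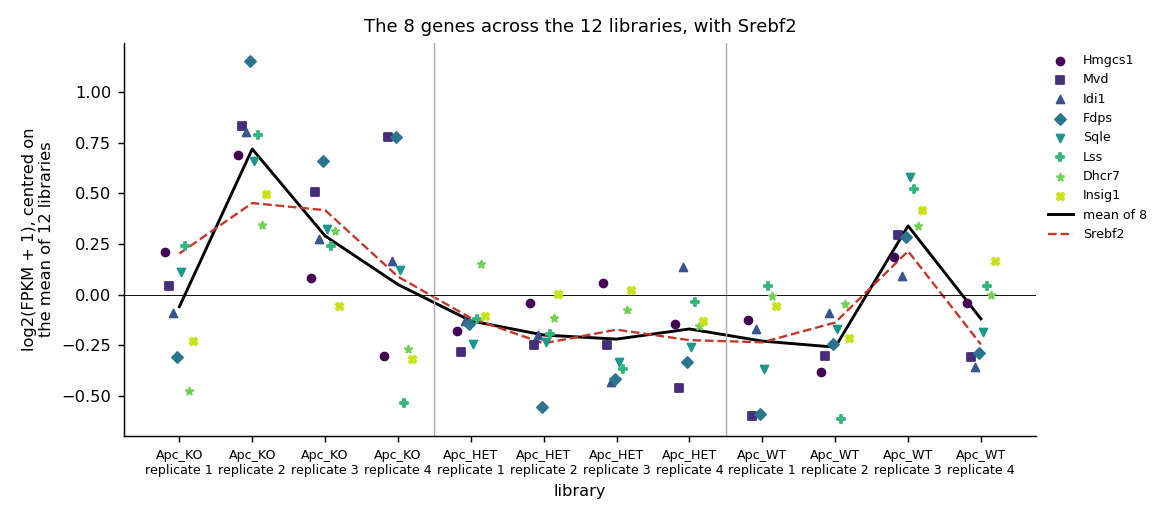
Log2(FPKM + 1) of the 8 genes (symbols), centred on each gene's mean, in the 12 libraries (x axis, Apc_KO, Apc_HET, Apc_WT), with their mean (black line) and Srebf2 (red dashes). The mean peaks at 0.72 in Apc_KO replicate 2 and at 0.34 in Apc_WT replicate 3, and Srebf2 follows a similar course.

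Likeness to this mean was measured as the root mean square difference of centred log2 values over the 12 libraries, for the 11331 other tested genes that are not predicted models or joined symbols, with a median of 0.42. The lowest value was 0.134 for Srebf2, which encodes SREBP2 itself, closely followed by Ncbp1 (0.136), the sterol desaturase gene Sc5d (0.137), Colgalt1 (0.138) and Gnb1 (0.138). Srebf2 had 72.6, 86.5, 84.4 and 67.0 FPKM in Apc_KO, 58.0, 53.1, 55.7 and 53.7 FPKM in Apc_HET, and 53.3, 57.1, 73.2 and 52.9 FPKM in Apc_WT. Its highest library was replicate 2 in Apc_KO and replicate 3 in Apc_WT, as for the 8 genes. The likeness was measured over the same 12 libraries, so these shared peaks are not a separate match. Among the 8, Sqle was nearest to the mean of the other 7 (0.13) and Fdps farthest (0.37).

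Each gene was also set against the mean of the other 7 in the same library, on log2 FPKM without the added 1. This removes any scaling factor of a library. Mvd was 0.84 to 0.10 below the others in Apc_KO, 1.32 to 0.99 below in Apc_HET and 1.41 to 1.01 below in Apc_WT, on the log2 scale. Its share of the group's signal was therefore larger in each Apc_KO library than in any other library. Insig1 was 0.20 to 0.43 above the others in Apc_KO, 0.66 to 0.92 above in Apc_HET and 0.69 to 0.97 above in Apc_WT, so it stood lower in Apc_KO without overlap. Dhcr7 had a mean difference from the others of -0.62 in Apc_KO, -0.14 in Apc_HET and -0.13 in Apc_WT. Its Apc_KO range overlapped that of Apc_WT but not that of Apc_HET. For Fdps the mean difference was 0.83 in Apc_KO, 0.25 in Apc_HET and 0.30 in Apc_WT, and its Apc_KO range overlapped both others. A gain of 1 gene lowers the others on this measure, and no test was made of it.

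The remaining synthesis genes were read from a list of 20, of which 18 were tested and 7 are among the 8 above. Of the other 11, Mvk (0.46), Cyp51 (0.67), Sc4mol, the older symbol of Msmo1 (0.58), and Sc5d (0.35) rose in Apc_KO against Apc_WT, while Lbr (-0.60) and Ebp (-0.71) fell, and 5 were not called. With size factors Cyp51, Lbr and Ebp kept their calls and Mvk, Sc4mol and Sc5d lost theirs. The median of the 11 was 0.39, against 0.12 over all genes, and 4 higher and 2 lower calls of 11 stand against the 27.9% and 17.7% of all genes. Apc_KO replicate 2 was the highest of its genotype in 8 of the 11 and Apc_WT replicate 3 in 9. Lbr makes a nuclear membrane protein with sterol reductase activity and Ebp a sterol isomerase, and both had all Apc_KO libraries below all Apc_WT libraries, as had 16.0% of all genes, while Sc5d was the 1 of the 11 with all Apc_KO libraries above, as had 24.3% of all genes.

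Fdft1 was not used because its rows lie at different loci in the genotypes' tables.

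Of 9 other genes of the SREBP system, 5 rose in Apc_KO against Apc_WT: Srebf1 (0.79), Insig2 (0.64), Mbtps1 (0.53), Ubxn8 (0.42) and Srebf2 (0.39 ± 0.12, SE, limma adjusted p = 0.0204). Srebf1 encodes the SREBP of fatty acid synthesis, Insig2 the second INSIG and Mbtps1 a protease that releases SREBP. The share of all genes called higher was 27.9%. With size factors 3 of the 9 were called, without Srebf2 and Ubxn8, against 22.1% of all genes. Scap had 27.6, 27.4, 28.6 and 25.8 FPKM in Apc_KO, 24.3, 24.2, 23.2 and 20.7 FPKM in Apc_HET, and 22.2, 22.7, 27.1 and 20.7 FPKM in Apc_WT, and was not called against Apc_WT (0.24, limma adjusted p = 0.066). Insig1 and Insig2 thus had differences of -0.10 and 0.64 from Apc_WT.

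Uptake and intracellular transport genes covered a wider range of fold changes than the synthesis genes. Of 12 tested, 7 rose and 2 fell in Apc_KO against Apc_WT, with a median of 0.62, against 27.9% of all genes called higher, 17.7% called lower and a median of 0.12. The count does not measure uptake or give its direction. Mylip, among the 7, passed the filter on low values only through its Apc_KO libraries. Scarb1, the scavenger receptor of high density lipoprotein, had 15.0, 21.8, 21.2 and 16.0 FPKM in Apc_KO, 4.73, 3.12, 3.85 and 4.01 FPKM in Apc_HET, and 3.61, 3.57, 5.26 and 5.52 FPKM in Apc_WT. All its Apc_KO libraries were above all others, and the difference from Apc_WT was 1.83 ± 0.17 (SE, limma adjusted p = 3.82e-06). Gramd1a, a carrier of plasma membrane cholesterol to the endoplasmic reticulum, rose by 2.35. Npc1l1, the intestinal sterol absorption transporter, fell by 3.64, and Lrp1, a large endocytic receptor, fell by 2.46. All 10 enterocyte markers, given below, were called lower in the same comparison, and their part in these values was not tested.

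**Figure D4:**
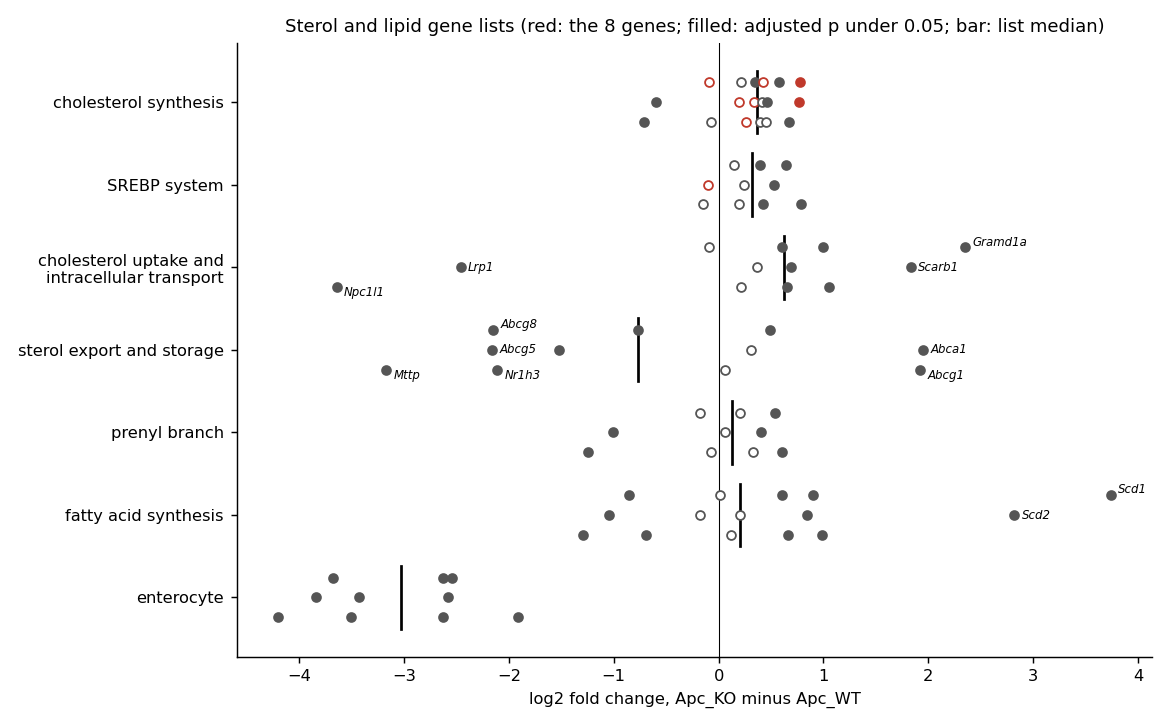
Log2 fold change, Apc_KO minus Apc_WT (x axis), of each tested gene of 6 sterol and lipid lists and of the enterocyte markers, with the 8 genes in red, filled symbols for adjusted p under 0.05 and a bar at each list's median. Synthesis genes lie between -0.71 and 0.78, whereas the uptake list runs from -3.64 for Npc1l1 to 2.35 for Gramd1a.

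Markers of other cells moved with genotype too. For the counts below, 27.9% of all genes were called higher and 17.7% lower in Apc_KO against Apc_WT. In Apc_KO against Apc_WT all 10 enterocyte markers were called lower, and their summed level was 256 to 430 FPKM in Apc_KO, 798 to 2219 FPKM in Apc_HET and 1876 to 4721 FPKM in Apc_WT. In sorted bulk samples, fewer cells of a type and less RNA per cell cannot be told apart. All 7 goblet markers (median -3.57) and all 6 enteroendocrine markers tested (median -3.50) were called lower as well, with sums of 200 to 476 and 13.4 to 114 FPKM in Apc_KO, 1607 to 1795 and 515 to 720 FPKM in Apc_HET, and 1481 to 2251 and 283 to 1171 FPKM in Apc_WT. Of the tuft markers 3 of 4 were called lower and Avil higher, and of the Paneth markers 2 of 5 were called lower and Mmp7 higher. The Paneth sum was 1269 to 6102 FPKM in Apc_KO, 3725 to 6680 FPKM in Apc_HET and 5413 to 9263 FPKM in Apc_WT, and the tuft sum was 58.6 to 114 FPKM in Apc_KO, 16.9 to 34.2 FPKM in Apc_HET and 23.8 to 29.8 FPKM in Apc_WT. Nearly all of the tuft sum in Apc_KO was Avil, at 59.4, 56.7, 53.4 and 107 FPKM. Of the leukocyte markers 1 of 2 tested was called lower, and the sum of the 4 used was 2.6 FPKM or less in Apc_KO, 4.40 to 6.01 FPKM in Apc_HET and 4.72 to 5.24 FPKM in Apc_WT. The stem list was mixed, with 5 of 10 genes higher and 2 lower, and its sum was 640 to 1424 FPKM in Apc_KO, 5298 to 8454 FPKM in Apc_HET and 5574 to 6409 FPKM in Apc_WT. Lgr5, the gene of the sort, averaged 41.0 FPKM in Apc_KO and 23.8 FPKM in Apc_WT, while Olfm4, another stem cell marker, averaged 391 FPKM in Apc_KO and 5461 FPKM in Apc_WT. With size factors Lgr5 was not called. Of the 10 stem genes 4 were then higher and 2 lower, against 22.1% and 21.8% of all genes. Most of the stem sum in Apc_HET and Apc_WT was Olfm4, and the other 9 genes summed to 559 to 829 FPKM in Apc_KO, 605 to 801 FPKM in Apc_HET and 555 to 661 FPKM in Apc_WT. Of the stroma and endothelium list, 4 of 8 genes were used and 3 tested, and all 3, Pdgfra, Cdh5 and Vim, were called higher. Cdh5 and Pdgfra passed the filter on low values only through their Apc_KO libraries, so the filter set the direction of their calls. Col1a1, not tested, was at 0 in 2 of the 4 Apc_KO libraries and at 5.65 FPKM in Apc_KO replicate 1. The sums of the 4 genes used were 154 to 173 FPKM in Apc_KO, 11.8 to 83.7 FPKM in Apc_HET and 6.81 to 20.9 FPKM in Apc_WT. Of the erythrocyte list no gene was used. The part of these cells in the values of the 8 genes was not tested.

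Genes of S phase and mitosis are set beside the library order because dividing cells make membrane. Their summed level was 205, 541, 562 and 270 FPKM in Apc_KO, 472, 438, 451 and 475 FPKM in Apc_HET, and 440, 402, 487 and 350 FPKM in Apc_WT. Apc_KO replicates 2 and 3 and Apc_WT replicate 3 were high on this sum and on the mean of the 8 genes. The 2 measures differed in Apc_KO replicates 1 and 4, which lay below every other library on the sum and above every Apc_HET library on the mean of the 8 genes. They also differed in Apc_HET, where the sum was 438 to 475 FPKM and the mean of the 8 genes was -0.22 to -0.13. Apc_WT replicate 3, with a sum of 487 FPKM, had a mean of 0.34. Only Mki67 of the 10 genes tested was called in Apc_KO against Apc_WT, and it was lower. Of all genes 27.9% were called higher and 17.7% lower. The part of division in the values of the 8 genes was not tested.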

How the data were processed

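Random-primed cDNA libraries were made from sorted cells of 12 mice, per the labels' protocols. The deposited values are FPKM per locus, per the file headers. Bowtie, TopHat, Cufflinks and Cuffdiff are listed in the submitters' processing notes, with the build mm10 (GRCm38); versions, annotation, strand and further scaling are not given in the sources used here. Absolute depth is unknown, and total FPKM was 391710 to 518428 per library.

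FPKM was summed per symbol. Of 14499 symbols, 295 whose loci differed between genotype tables and 122 with a failed, high or low data status were left out. The 12962 genes with at least 1 FPKM in at least 4 libraries were tested with limma 3.58.1 (R 4.3.3) on log2(FPKM + 1), two-sided, with eBayes trend and Benjamini-Hochberg adjustment within each of 3 comparisons, after a test on simulated data. Fold changes on this scale understate those of low genes. The labels give no batch or date.

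Alternatives were median-of-ratios size factors, quantile normalization, a pseudocount of 0.1, no filter, a filter of 5 FPKM, the highest locus per symbol, 2-genotype fits, a replicate block and each library left out. Gene coordinates and overlaps come from GENCODE vM21 and promoters from RefSeq. The 8 genes and all lists were chosen with earlier results of these data known. Text names the 8 genes, Srebf2 and Scap, the called synthesis genes, up to 4 called genes of each other lipid list by size of change, and the 5 genes most alike; Abca1 was named after its values were seen. Some genes of these pathways are not reported here.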

Additional observations from a re-analysis of the deposited data

Results flagged for a closer look

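Of 30 groups of 4 libraries examined, 1 held a library far from the others. Dhcr7 had 36.0 FPKM in Apc_WT replicate 3 against 27.3 to 28.2 FPKM in the other 3 Apc_WT libraries, and on the log2(FPKM + 1) scale, on which all groups were examined, the gap was 0.879 of the group's range, above the critical value of Dixon's test at the 95% level. Chance gives such a gap in about 5% of groups. The same library was the highest Apc_WT library for the other 7 genes.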

How the results depend on the processing

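The labels state no pairing of libraries by replicate number. In their deviations from the genotype means, same-numbered Apc_KO and Apc_WT libraries had correlations of 0.18, -0.103, 0.12 and 0.15. Those of Apc_HET and Apc_WT were -0.195, -0.15, -0.0926 and -0.0655, and those of Apc_KO and Apc_HET were -0.0907, -0.0958, -0.0751 and 0.0721. These few values cannot decide whether the libraries were paired. With the replicate block, genes called were 5681 in Apc_KO minus Apc_WT, 5178 in Apc_KO minus Apc_HET and 0 in Apc_HET minus Apc_WT, and the 8 genes had 2, 3 and 0 calls. Of 528 values of single genes under alternatives, 480 kept their direction and side of the threshold, 14 lost and 6 gained a call, and 28 changed sign; the 28 were all of genes not called. In Apc_KO minus Apc_WT, the 8 genes had 1 call with size factors and 1 when fitted on the 2 genotypes alone, against 2, and 1 to 3 with 1 library left out (1 without Apc_KO replicate 2, 3 or 4 or Apc_WT replicate 1, 2 or 4). The synthesis list had 4 calls with size factors and 3 in the 2-genotype fit, against 8, and 3 to 10 with 1 library left out (4 without Apc_KO replicate 2 or Apc_WT replicate 2, 3 without Apc_WT replicate 1, 5 without Apc_WT replicate 4). Genes called with 1 library left out numbered 5244 to 6269 in Apc_KO minus Apc_WT, 4562 to 5622 in Apc_KO minus Apc_HET and 0 to 4 in Apc_HET minus Apc_WT (1 without Apc_KO replicate 2, 4 without Apc_HET replicate 4, 3 without Apc_WT replicate 3). The last count was 1 with a pseudocount of 0.1 and 1 in the 2-genotype fit. Alternatives chosen after seeing the data gave it 3 with size factors without Apc_WT replicate 3, and 4 without that library and Apc_KO replicate 2.

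Sign changes under other settings were Hmgcs1 at -0.07 in Apc_HET minus Apc_WT with size factors, Mvd there at 0.02 with size factors without Apc_WT replicate 3, and in Apc_KO minus Apc_HET Dhcr7 and Insig1, both at -0.02 with size factors (with or without that library) and at -0.00 and -0.02 with quantile normalization. Without Apc_KO replicate 2 and Apc_WT replicate 3 together, Mvd was 0.09, Idi1 0.05 and Fdps 0.01 in Apc_HET minus Apc_WT, and Dhcr7 -0.10 and Insig1 -0.15 in Apc_KO minus Apc_HET; Sqle was 0.42 and called in Apc_KO minus Apc_WT. With 1 library left out, Apc_KO minus Apc_WT ran from -0.02 to 0.43 for Lss, -0.21 to 0.06 for Dhcr7 and -0.28 to 0.01 for Insig1. Apc_HET minus Apc_WT ran from -0.08 to 0.10 for Hmgcs1, -0.20 to 0.09 for Mvd, -0.12 to 0.07 for Idi1 and -0.28 to 0.01 for Fdps. Apc_KO minus Apc_HET ran from -0.10 to 0.18 for Dhcr7 and -0.15 to 0.12 for Insig1. The cause of these changes was not tested.

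Absolute depth is unknown, so counting error could not be set beside the spread between libraries. With 4 libraries a genotype and a coefficient of variation up to 37.9% in Apc_KO, small differences could not be resolved.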

Other observations

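Sterol export and storage genes split in Apc_KO against Apc_WT, with 3 of 11 called higher and 6 called lower, against 27.9% and 17.7% of all genes. Mttp, which loads lipid onto apolipoprotein B, fell by 3.17, and Abcg5 and Abcg8, which together pump sterol out into the gut lumen, fell by 2.16 and 2.15. Nr1h3, the gene of a sterol-sensing nuclear receptor, fell by 2.11. Abca1, which exports cholesterol to apolipoprotein A, rose by 1.95, to 10.7, 3.94, 5.97 and 4.21 FPKM in Apc_KO, against 0.889, 0.529, 0.392 and 1.35 FPKM in Apc_WT. Abca1 and Abcg1, both among the genes called higher, passed the filter on low values only through their Apc_KO libraries. The filter thus set the direction of their calls. The enterocyte sums given with the markers fell in the same libraries, and their part in these values was not tested.

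The branch from farnesyl diphosphate to prenyl groups had 3 of 10 genes called higher and 2 lower in Apc_KO against Apc_WT, shares close to the 27.9% and 17.7% of all genes, and 2 higher and 2 lower with size factors. Pdss1 and Pdss2, the pair of subunits that make the ubiquinone tail, fell by 1.25 and 1.01, while the prenyltransferase subunit gene Rabggtb rose by 0.60 and Ggps1, the geranylgeranyl diphosphate synthase gene, by 0.54.

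Fatty acid synthesis genes had 7 of 15 called higher and 4 lower, against the same shares of all genes. The desaturase gene Scd1 had 14.8, 20.8, 18.3 and 12.8 FPKM in Apc_KO, against 0.277, 0.158, 0.157 and 0.680 FPKM in Apc_WT. Scd1 passed the filter on low values only through its Apc_KO libraries. Scd2 had 144, 152, 148 and 84.4 FPKM in Apc_KO, against 11.4, 13.8, 48.1 and 11.7 FPKM in Apc_WT, with Apc_WT replicate 3 again the highest of its genotype. The elongase gene Elovl6 fell by 1.29 and Acacb, an acetyl-CoA carboxylase gene, by 1.05. In Apc_HET minus Apc_WT none of the genes of these 3 lists was called by limma, which called 0 genes in all. Those at an unadjusted limma p under 0.05 numbered 561, or 4.33% of all tested.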
